A study of Homo sapiens with 6 samples.

Results

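The genes described here are the 109 numbered ZNF zinc finger genes that were expressed in SK-N-BE(2)-C cells, an established human neuroblastoma line. They were chosen by symbol and by level. A member carries the prefix ZNF followed by a number, with or without a closing letter, and had a mean over the 6 libraries of at least 20 CPM, the count of unique molecular identifiers (UMIs, the tags that count single transcripts) after every library is scaled to the same total. Of 36601 genes in the files, 509 carried such a symbol and 109 reached that level. The mean CPM chose the members, so their levels are a description and support nothing. Cells were treated with DMSO (the solvent), with TSA (trichostatin A, which blocks the catalytic activity of histone deacetylases) or with E6R, a compound known here by its code name, and each treatment had 2 libraries. The title of the series speaks of an inhibitor that acts on the HDAC complex without blocking its enzyme, and the comparisons set E6R and TSA against DMSO and against each other. All 3 groups were the same line, with no genetic change named in the labels, and neither dose nor time is given in the sources used here.

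A zinc finger of this class is a short loop folded around a zinc ion, and tandem fingers read DNA, RNA or protein. Many ZNF proteins also carry a KRAB box, which binds the corepressor TRIM28 (KAP1) and brings the histone methyltransferase SETDB1 and heterochromatin proteins to the bound DNA. KRAB zinc finger genes lie in large clusters on human chromosome 19 and many silence retroelements. Others carry a SCAN box, used to pair with other SCAN proteins. ZNF proteins without these boxes include subunits of deacetylase and demethylase complexes, promoter activators, and proteins that work on RNA or ribosomes.

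Over the 6 libraries, 17589 barcodes passed as cells (500 or more genes and at most 20% mitochondrial UMIs), and the summed depth ran from 4206366 to 26180262 UMIs with the DMSO libraries shallowest. Any pair of libraries shared 11 to 58 cell barcodes, at most 2.11% of the smaller library. Mitochondrial genes held 5.83% and 6.20% of the UMIs under DMSO, 6.08% and 9.71% under TSA, and 1.55% and 1.51% under E6R. The largest 1% of cells by UMIs held 22.5% of the total in E6R replicate 2. The 13 adrenergic neuroblastoma markers summed to between 4065 and 7257 CPM in every library, while the 9 immune markers reached at most 12.6 CPM, with NKG7 at 0. The 13 mesenchymal markers summed to 1731 and 907 CPM under DMSO, 3307 and 2029.9 under TSA, and 2554 and 1435 under E6R. The 8 epithelial and endothelial markers were higher in each replicate 1 (127, 38.2 and 129.6 CPM for DMSO, TSA and E6R) than in each replicate 2 (18.98, 17.9 and 20.4 CPM). TSA replicate 2 was deposited under a name with the added mark reWTA, which the other libraries lack and which the sources used here do not explain. The part of these differences in the results for ZNF genes was not tested.

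The members had mean levels between 20.2 and 175 CPM with a median of 34.7 CPM. There were 27 at 50 CPM or more and 5 at 100 CPM or more. Seq-Well counts the 3′ end of each transcript, so these levels are per transcript and were not divided by gene length. The smallest count of a member in a library was 43 UMIs, and the median member had 186 UMIs in the shallowest library. By group, 106 members reached 20 CPM under DMSO, 67 under TSA and 98 under E6R. Only 57 reached it in all 3 groups, 3 reached it in DMSO alone and 1 in TSA alone. Just inside the limit were ZNF84 (20.2 CPM), ZNF142 (20.5 CPM) and ZNF516 (20.6 CPM), and just outside were ZNF587 (19.9 CPM), ZNF33B (19.7 CPM) and ZNF74 (19.4 CPM). All 109 members passed the low-count filter of the fit, as did 358 of the 400 ZNF genes below the limit.

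At the head of the list stood ZNF106, an RNA-binding protein needed by muscle and motor neurons. Its level, like all levels from here on in CPM with TMM scaling (a factor per library that aligns most genes), was 198 and 161 CPM under DMSO, 213 and 228 under TSA and 127 and 129.8 under E6R. Both E6R libraries were the lowest of the 6. ZNF302, a KRAB protein, was measured at 131 and 189 CPM under DMSO, 112 and 220.5 under TSA and 149 and 224 under E6R. Replicate 2 was the higher library in each group for ZNF302, and the groups overlapped. ZNF207 (BuGZ), which helps chromosomes attach to the mitotic spindle, lay at 109 and 102 CPM (DMSO), 122 and 95.2 (TSA) and 150.4 and 136 (E6R). ZNF664 lay at 106 and 97.5 CPM (DMSO), 116 and 118 (TSA) and 119 and 95.8 (E6R). The mean levels of ZNF106 and ZNF302 were close (175 and 170.4 CPM before TMM scaling), as were those of ZNF207 and ZNF664 (119 and 108 CPM). The order within these pairs was not tested. The next in order were ZNF217 (101 CPM), ZNF791 (95.9 CPM), ZNF148 (92.2 CPM), ZNF638 (89.0 CPM), ZNF704 (76.6 CPM) and ZNF511 (74.4 CPM).

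TSA moved many of these genes in both directions. With edgeR's quasi-likelihood test fitted over all 16763 genes and a Benjamini-Hochberg adjusted p under 0.05, 15 members rose, 33 fell and 61 did not pass. Over all genes tested 16.2% rose and 13.5% fell, and over the 7523 genes that also had a mean of 20 CPM or more 21.1% rose and 18.6% fell. Among the members the shares were 13.8% and 30.3%. The fitted log2 fold changes of the members ran from -3.01 to 1.65 with a median of -0.38, against 0.07 over the genes at 20 CPM or more. Of the falls, 26 were 2-fold or larger, as were 11 of the rises. The mean behind the level limit comes from 4 libraries without TSA and 2 with it. A gene that fell could enter through the other groups and a gene that rose through the TSA libraries. These counts thus describe the members only. Among the 106 members that also reached 20 CPM under DMSO, 12 rose (11.3%) and 33 fell (31.1%), beside 19.01% and 19.3% of the 7227 genes held to the same limits. At 20 CPM or more in each group, 14.0% of 57 members rose and 12.3% fell, beside 21.3% and 12.7% of 6013 genes. Asking for that level in each group takes out genes that fell under TSA by its own construction. Among the 358 tested ZNF genes with a mean below 20 CPM 28 rose and 28 fell (7.82% each) with a median of 0.00. These genes have lower counts and were set apart by level, so they are no measure for the members. Scaling moved the split too, to 14 rises and 34 falls with DESeq2 size factors, 12 and 37 with upper-quartile scaling, and 9 and 50 with library totals alone. With a library left out, the rises and falls numbered 10 and 19 (without DMSO replicate 1), 4 and 33 (without DMSO replicate 2), 8 and 18 (without TSA replicate 1), and 2 and 14 (without TSA replicate 2, the library with the added mark).

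**Figure D1:**
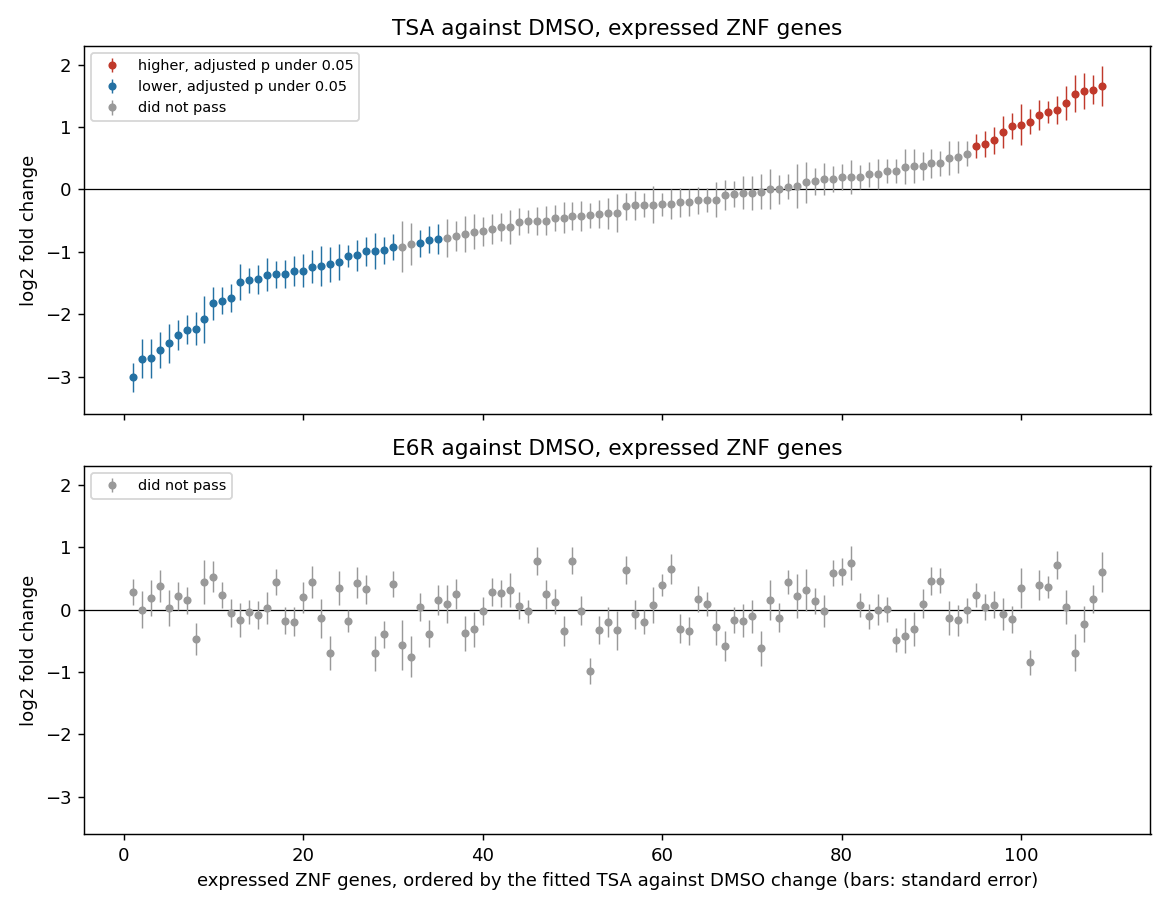
Fitted log2 fold changes of the 109 ZNF genes (y axis) under TSA (top) and E6R (bottom) against DMSO, in the order of the TSA change (x axis); points are fitted values and bars their standard errors. The TSA values run from -3.01 to 1.65 with 33 genes called lower (blue) and 15 higher (red), while the E6R values stay between -0.98 and 0.79 with none called.

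The deepest fall was that of ZNF462, a large nuclear protein with 34 fingers counted in its sequence, known for its part in brain and craniofacial development. The gene lies at chr9:106863097-107013634 (GRCh38). It was at 49.9 and 44.2 CPM under DMSO, 5.55 and 6.09 under TSA and 61.9 and 53.2 under E6R. Both TSA libraries were far below the other 4, and the log2 fold change against DMSO was -3.01 (SE 0.23, adjusted p = 0.000541). ZNF804A, a neuronal protein whose gene is linked to schizophrenia risk, was at 31.02 and 25.6 CPM under DMSO, 4.71 and 3.92 under TSA and 38.9 and 25.7 under E6R, and fell by 2.71 in log2 units (SE 0.31, adjusted p = 0.00145). ZNF711, an X-linked intellectual disability gene whose protein recruits the demethylase PHF8, went from 41.2 and 52.8 CPM to 17.5 and 19.2 under TSA and was at 64.8 and 62.98 under E6R (-1.36, SE 0.22, adjusted p = 0.00424). ZNF148 (ZBP-89), a GC-box binding factor with a part in development of the brain, was at 110.3 and 118 CPM under DMSO, 57.4 and 51.5 under TSA and 101 and 101 under E6R. It fell by 1.07 (SE 0.18, adjusted p = 0.005), a call lost without TSA replicate 2 (adjusted p = 0.0674). The remaining gene of the neural list, ZNF292, lay at 69.05 and 77.5 CPM (DMSO), 52.1 and 50.8 (TSA) and 75.00 and 69.1 (E6R) and did not pass (adjusted p = 0.0696), although it did in 6 of 20 alternatives. In all, 5 genes of this list of 16 were expressed, and 4 of them fell and none rose, beside 18.6% and 21.1% of all genes at 20 CPM or more. ZNF462, ZNF804A and ZNF711 were below 20 CPM under TSA and reached the limit through the DMSO and E6R libraries, so the count describes these 5 genes and says nothing of the list.

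Of the 10 expressed members whose proteins sit in corepressor complexes, 3 rose and 3 fell, beside 21.1% and 18.6% of all genes at 20 CPM or more. The 3 that fell (ZNF532, ZNF644 and ZNF827) were below 20 CPM under TSA and reached the limit through the DMSO and E6R libraries. ZNF516, among those that rose, is the 1 member that reached 20 CPM in TSA alone, so it entered through the TSA libraries. The counts describe these 10 genes and say nothing of the list. ZNF217, a partner of CtBP and the demethylase complex CoREST and an oncogene in breast cancer, lies at chr20:53567065-53609907. It was at 64.8 and 58.1 CPM under DMSO, 160.1 and 212 under TSA and 77.7 and 61.4 under E6R, and rose by 1.60 (SE 0.23, adjusted p = 0.00275). Both TSA libraries stood above the other 4. ZNF687, which joins ZMYND8 in a chromatin complex, was at 15.3 and 21.4 CPM under DMSO, 49.5 and 60.7 under TSA and 12.95 and 18.4 under E6R (1.58, SE 0.29, adjusted p = 0.00642). ZNF687 lost this call without TSA replicate 2, where its fitted value was 1.47. Its partner in that complex, ZNF532, moved the other way, from 32.1 and 30.4 CPM to 4.41 and 6.09 under TSA, with 46.5 and 34.9 under E6R (-2.57, SE 0.28, adjusted p = 0.00126). The third such partner, ZNF592, lay at 27.2 and 27.5 CPM (DMSO), 17.2 and 22.7 (TSA) and 23.1 and 20.1 (E6R) and did not pass. ZNF644, a partner of the methyltransferases G9a and GLP, fell by 1.78 (SE 0.21, adjusted p = 0.00161), from 49.9 and 53.6 CPM to 16.6 and 13.5, with 61.4 and 60.6 under E6R. ZNF827, which can bring the NuRD deacetylase complex to telomeres, fell by 2.33 (SE 0.24, adjusted p = 0.00112), from 29.5 and 30.8 CPM to 5.70 and 6.27, with 37.9 and 32.5 under E6R. The rise of ZNF516, a CtBP partner, was the weakest of these (16.1 and 13.2 CPM under DMSO, 27.8 and 32.4 under TSA and 24.01 and 13.4 under E6R, adjusted p = 0.0472), and it failed in 12 of 20 alternatives.

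Among the 9 expressed promoter activators, 3 rose and 2 fell, beside 21.1% and 18.6% of all genes at 20 CPM or more. ZNF384 and ZNF143, which rose, averaged below 20 CPM under DMSO and reached the limit through the TSA and E6R libraries. The counts describe these 9 genes and say nothing of the list. ZNF384, which binds A-rich DNA and is a fusion partner in leukaemia, had the largest fitted rise of all members, from 17.00 and 12.6 CPM to 34.9 and 58.2, with 25.1 and 19.9 under E6R (1.65, SE 0.32, adjusted p = 0.00838). The DMSO, E6R and TSA libraries were in ascending order without overlap, but the call was lost without DMSO replicate 2 (adjusted p = 0.0652) or TSA replicate 2 (0.0723). ZNF143, which binds at the promoters of many housekeeping genes, rose by 1.20 (SE 0.24, adjusted p = 0.00899) from 18.9 and 15.5 CPM to 42.1 and 36.7, with 20.98 and 24.1 under E6R. That call did not hold without DMSO replicate 2, TSA replicate 1 or TSA replicate 2 (adjusted p from 0.0507 to 0.0755). ZNF687 and ZNF148 stand on this list as well. ZNF146, a protein made almost wholly of fingers, fell by 0.93 (SE 0.21, adjusted p = 0.0135) from 49.3 and 47.2 CPM to 24.8 and 26.03, with 70.4 and 57.9 under E6R, and did not pass without DMSO replicate 1 or either TSA library (adjusted p at most 0.108).

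Of the 12 expressed members that act on RNA, ribosomes or mitosis, 4 rose and 2 fell, with a median of 0.21. Over all genes at 20 CPM or more 21.1% rose and 18.6% fell, with a median of 0.07. ZNF346, which fell, was below 20 CPM under TSA, and the counts describe these 12 genes only. ZNF622, the human counterpart of a yeast factor that matures the large ribosomal subunit, was at 45.3 and 44.8 CPM under DMSO, 110.2 and 103 under TSA and 57.9 and 57.5 under E6R. It rose by 1.24 (SE 0.18, adjusted p = 0.00284), and its replicates differed little in every group. ZNF598, the ubiquitin ligase that marks collided ribosomes, was at 29.3 and 29.5 CPM under DMSO, 57.5 and 96.04 under TSA and 28.4 and 31.9 under E6R (1.38, SE 0.28, adjusted p = 0.00906). Its call was lost without either DMSO library or without TSA replicate 2 (adjusted p from 0.0504 to 0.0701). ZNF330 (NOA36), a nucleolar protein in which no finger of the searched pattern was found, rose from 19.97 and 23.1 CPM to 51.5 and 52.9 (1.28, SE 0.23, adjusted p = 0.00636) and stood between those groups under E6R, at 40.1 and 30.9. This call needed TSA replicate 2 (adjusted p = 0.052 without it). ZNF277, which binds a protein of the small ribosomal subunit, rose by 0.92 (adjusted p = 0.0311) from 22.3 and 18.9 CPM to 43.9 and 34.2, with 22.1 and 17.1 under E6R, and failed in 9 of 20 alternatives. ZNF326, part of a complex that couples splicing to elongation, fell from 66.5 and 51.8 CPM to 33.96 and 25.4 and was at 74.1 and 73.97 under E6R (-0.99, SE 0.23, adjusted p = 0.0158). ZNF346 (JAZ), which binds double-stranded RNA, fell from 40.2 and 30.98 CPM to 16.03 and 19.9 and was at 17.4 and 26.3 under E6R (-0.99, SE 0.29, adjusted p = 0.0368). Neither fall held with either TSA library left out, nor without DMSO replicate 1.

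Further falls came from genes on none of the role lists. ZNF428 at chr19:43607219-43619874 was at 60.8 and 47.2 CPM under DMSO, 10.5 and 5.92 under TSA and 57.9 and 50.2 under E6R (-2.71, SE 0.32, adjusted p = 0.00152). ZNF618, a partner of UHRF2, which reads hydroxymethylated DNA, was at 64.2 and 40.2 CPM under DMSO, 7.98 and 10.9 under TSA and 59.5 and 47.1 under E6R (-2.47, SE 0.31, adjusted p = 0.00187). ZNF704 fell by 2.25 (SE 0.23, adjusted p = 0.00108), from 91.6 and 99.3 CPM to 17.02 and 23.2, with 95.98 and 115 under E6R. In these 3 genes both TSA libraries lay below the other 4, and the DMSO and E6R libraries overlapped. ZNF32 fell by 2.08 (SE 0.37, adjusted p = 0.00633), from 27.6 and 21.4 CPM to 7.75 and 3.74, with 36.9 and 29.6 under E6R. ZNF32 holds the smallest member count of all, 43 UMIs in TSA replicate 2. Its locus carries antisense genes on the opposite strand, and the sources used here do not give whether the counting used strand. Overlaps of this kind are common: 65 of the 109 members overlap another annotated gene, 18 of them on the same strand.

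**Figure D2:**
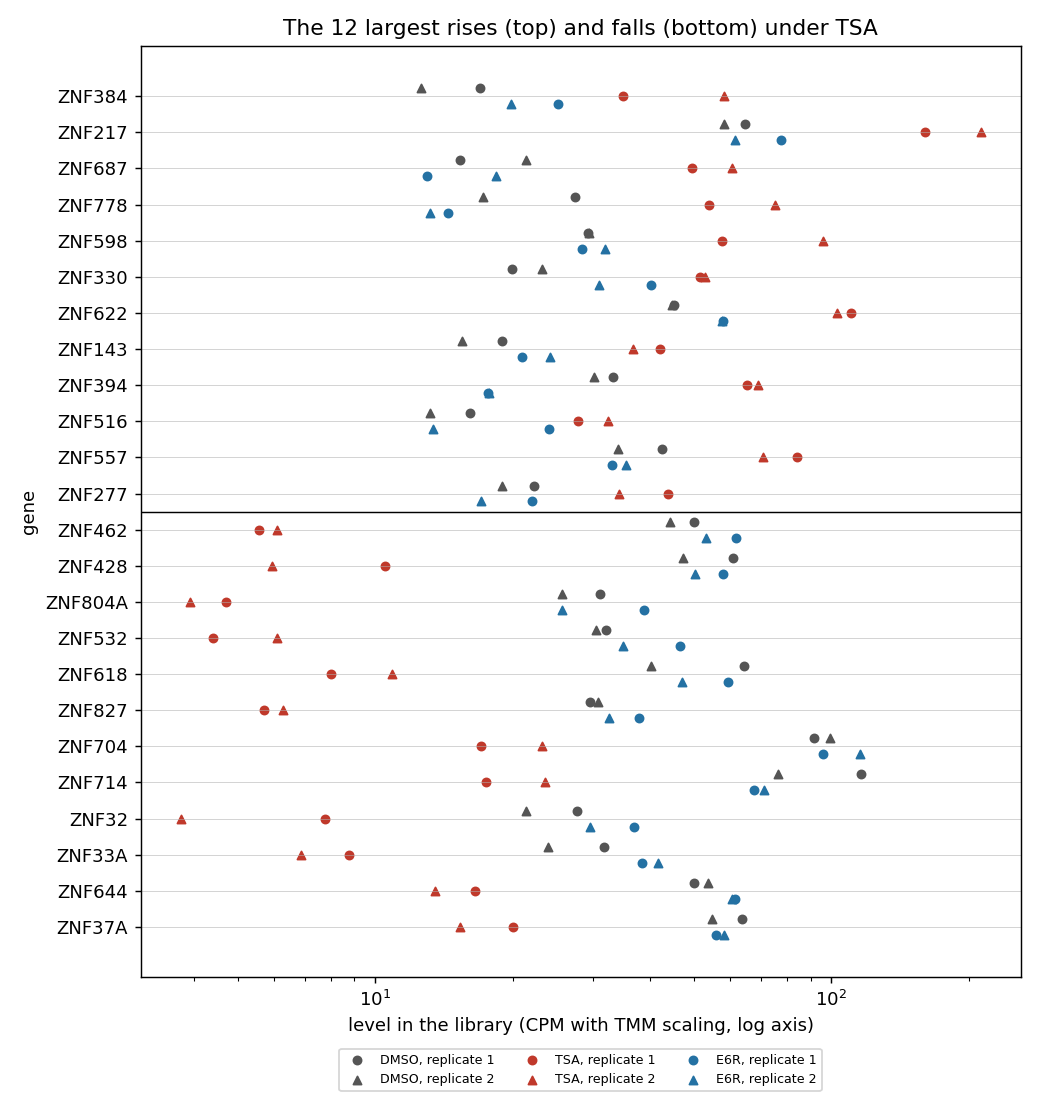
Level of the 12 largest rises (above the line) and 12 largest falls (below it) under TSA, in CPM with TMM scaling on a log axis, for each library; circles are replicate 1 and triangles replicate 2. In each gene both TSA libraries (red) stand apart from both DMSO libraries (grey), as for ZNF462 at 5.55 and 6.09 CPM against 49.9 and 44.2.

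Over 20 alternative settings, 16 of the 48 called members passed in every one. They were ZNF217 and ZNF622 among the rises and 14 of the falls, the 12 largest plus ZNF562 and ZNF711. The other 32 failed in at least 1 setting, and 31 of the 48 passed in every setting that left out no library. No called member changed sign.

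KRAB boxes were found in 46 of the 109 members (42.2%), against 344 of all 509 ZNF genes (67.6%). Likewise 26 members (23.9%) lie on chromosome 19, where 247 of the 509 (48.5%) lie. Members with a KRAB box had a median of 10 fingers and those without a median of 6. Under TSA, 5 of the 46 rose and 12 fell (median log2 value -0.39), and 10 of the 63 members without the box rose and 21 fell (median -0.27). Of the 26 genes on chromosome 19, 1 rose (ZNF557, 42.5 and 34.04 CPM under DMSO, 83.9 and 70.8 under TSA and 33.1 and 35.5 under E6R) and 10 fell, with a median of -0.66. On chromosome 19 the 19 KRAB members had 1 rise and 5 falls (median -0.42), and the 7 members without the box 5 falls (median -1.06). The 83 members on other chromosomes had 14 rises and 23 falls and a median of -0.23. Over all genes at 20 CPM or more 21.1% rose and 18.6% fell. Of the 10 chromosome 19 genes that fell, only ZNF146, ZNF426 and ZNF562 reached 20 CPM in each group. The others were below it under TSA and reached the limit through the DMSO and E6R libraries. The counts and medians of these classes thus describe the members only, and no test of the difference between the classes was made. DMSO replicate 1 stood apart for them: 36 of the 46 KRAB members (78.3%) were higher in DMSO replicate 1 than in replicate 2, as were 19 of the 26 on chromosome 19, against 50.1% of all genes at 20 CPM or more. Fewer KRAB falls and fewer falls on chromosome 19 were called without DMSO replicate 1 or without either TSA library. Fewer KRAB rises were called without DMSO replicate 2 or without either TSA library. Calls over all genes at 20 CPM or more were fewer in these fits too, so such losses are not particular to these classes.

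**Figure D3:**
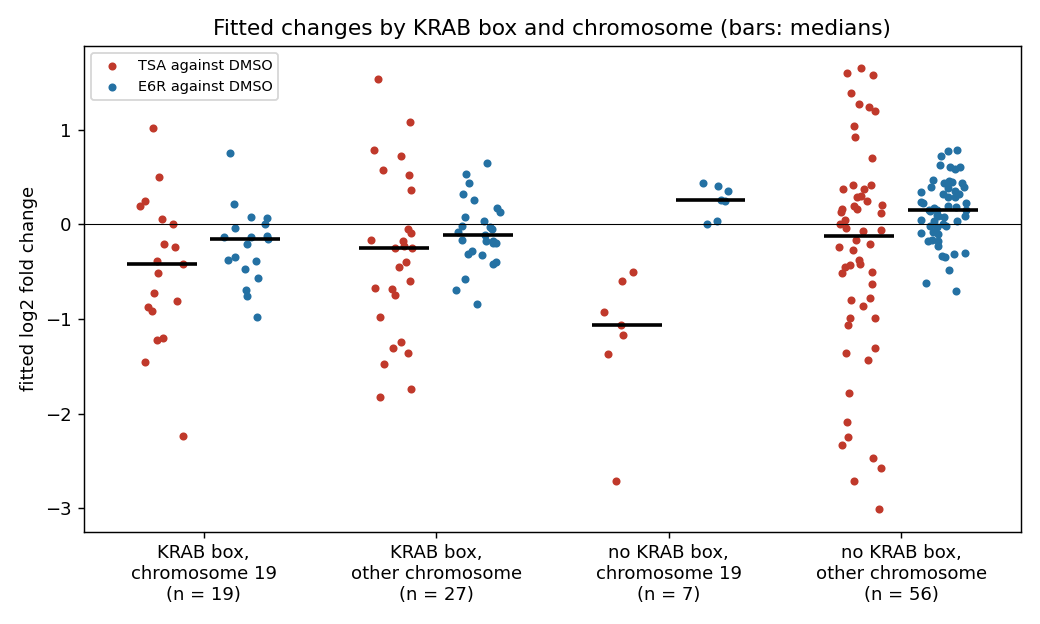
Fitted log2 fold change against DMSO (y axis) of each ZNF gene under TSA (red) and E6R (blue), by KRAB box and chromosome (x axis, with the number of genes); black bars are medians. From left to right stand KRAB genes on chromosome 19 and elsewhere, then genes without the box on chromosome 19 and elsewhere. The TSA medians are -0.42, -0.25, -1.06 and -0.12 in that order, and the E6R medians -0.16, -0.11, 0.26 and 0.16.

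The KRAB gene with the deepest fall was ZNF714. It was at 116 and 76.3 CPM under DMSO, 17.5 and 23.5 under TSA and 67.6 and 71.00 under E6R (-2.23, SE 0.27, adjusted p = 0.00165), so both TSA libraries were the lowest of the 6. It belongs to a run of 9 members between positions 19668796 and 23395560 of chromosome 19 (GRCh38), all with KRAB boxes: ZNF101, ZNF506, ZNF90, ZNF430, ZNF714, ZNF431, ZNF429, ZNF43 and ZNF91. In that run ZNF430, ZNF714 and ZNF43 fell, 7 of the 9 had a fitted value below 0, and the median was -0.87. Fitted values were above 0 in 37 of the 109 members and in 4016 of the 7523 genes at 20 CPM or more, of which 18.6% fell. ZNF430, ZNF714 and ZNF43 averaged below 20 CPM under TSA before TMM scaling and reached the limit through the other libraries. The counts describe these 9 genes only. ZNF43 and ZNF430 lost their calls without DMSO replicate 1 or without either TSA library. ZNF91, which silences SVA elements, was at 44.4 and 17.8 CPM under DMSO, 17.2 and 15.7 under TSA and 23.7 and 18.3 under E6R. Its DMSO replicates were far apart and it did not pass (adjusted p = 0.123). Genes of this run are close paralogs, and the sources used here do not give how reads shared between copies were counted, so their separate levels are uncertain. A second cluster lies on chromosome 10, where ZNF33A and ZNF37A are 29246 bases apart. ZNF33A was at 31.7 and 23.9 CPM under DMSO, 8.74 and 6.88 under TSA and 38.4 and 41.7 under E6R (-1.83, SE 0.26, adjusted p = 0.00284), and ZNF37A at 63.7 and 54.7 CPM (DMSO), 20.1 and 15.3 (TSA) and 55.9 and 58.1 (E6R) (-1.74, SE 0.23, adjusted p = 0.00211). ZNF33B, the near copy of ZNF33A, lay just below the level limit. It had 25.2 and 20.2 CPM before TMM scaling under DMSO, 7.28 and 4.205 under TSA, and 25.7 and 35.3 under E6R. Reads of ZNF33A and ZNF33B may be split between them. Neighbours did not always move together, since ZNF394 rose while ZNF655, 58082 bases away, was at 91.4 and 49.9 CPM (DMSO), 44.4 and 43.7 (TSA) and 58.95 and 54.7 (E6R) and did not pass.

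Of the 20 listed silencers of retroelements only 5 were expressed, and 1 of them fell (ZNF33A) while none rose. Over all genes at 20 CPM or more 18.6% fell and 21.1% rose. ZNF33A was below 20 CPM under TSA and reached the limit through the DMSO and E6R libraries, so the count describes these 5 genes only. Among KRAB genes that rose, ZNF778 was at 27.4 and 17.2 CPM under DMSO, 53.9 and 75.4 under TSA and 14.4 and 13.2 under E6R (1.54, SE 0.29, adjusted p = 0.00784). ZNF394, which has a KRAB and a SCAN box and is known to inhibit AP-1 signalling, was at 33.1 and 30.2 CPM under DMSO, 65.3 and 69.04 under TSA and 17.6 and 17.8 under E6R (1.08, SE 0.20, adjusted p = 0.00683). In both genes the E6R libraries were the lowest of the 6 and the TSA libraries the highest. The rises of ZNF778 and ZNF394 did not hold without DMSO replicate 2 or TSA replicate 2 (adjusted p from 0.0563 to 0.0721). Of the 10 members with a SCAN box, 2 rose (ZNF394 and ZNF496) and none fell, beside those same 21.1% and 18.6%. The rise of ZNF496 (adjusted p = 0.0349) failed in 11 of 20 alternatives. That of ZNF557 failed in 5.

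The machinery that KRAB boxes recruit was measured alongside. Of 22 such cofactor genes, 2 rose and 4 fell under TSA, a share of 27.3% called, below the 29.7% of all genes tested and the 39.7% of those at 20 CPM or more. TRIM28 itself was at 64.6 and 57.9 CPM under DMSO, 59.8 and 65.1 under TSA and 55.1 and 52.6 under E6R, a log2 fold change of 0.03 (SE 0.19) whose sign differed between alternatives. SETDB1 was at 24.9 and 14.5 CPM under DMSO, 21.04 and 24.6 under TSA and 29.6 and 24.4 under E6R and did not pass (adjusted p = 0.621). MORC2, an effector of the HUSH silencing complex, rose from 68.8 and 62.2 CPM to 177 and 189.8, with 78.7 and 79.8 under E6R (1.49, SE 0.18, adjusted p = 0.00174). PPHLN1 (periphilin), a subunit of that complex, rose by 0.94 (SE 0.21, adjusted p = 0.0126). Falls were measured for the heterochromatin protein CBX3 (-0.90, SE 0.18, adjusted p = 0.0103), the NuRD subunit CHD3 (-0.78, adjusted p = 0.0401) and the methyltransferases SUV39H1 (-1.26, adjusted p = 0.0132) and SUV39H2 (-1.03, adjusted p = 0.0284). MORC2 passed in all 20 alternatives, and the other 5 failed in 3 to 7 of them, among these the fits without either TSA library. Of the 80 tested genes with ZBTB, ZSCAN, ZKSCAN or ZFP symbols, 15 rose and 15 fell (18.8% each), with a median of 0.20. Over all genes tested 16.2% rose and 13.5% fell.

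Under E6R no member passed against DMSO. None of the 16763 genes did (0% of all tested), so this holds for the transcriptome as tested by edgeR and not for ZNF genes alone. At an unadjusted p under 0.05 there were 16 members, 14.7% of them, against 17.5% of the genes at 20 CPM or more. The fitted values ran from -0.98 to 0.79 with a median of 0.04, against 0.18 over the genes at 20 CPM or more, and the smallest adjusted p was 0.205. The 6 members with the smallest p are given by their values. ZNF791, a KRAB protein, was at 143 and 108 CPM under DMSO and 64.8 and 62.8 under E6R, with 88.8 and 99.6 under TSA (-0.98, SE 0.20). It is the 1 member that passed in alternative analyses, with DESeq2 (adjusted p = 0.0193) and in edgeR with no low-count filter (adjusted p = 0.0422). In those analyses no member was called higher, while of all genes at 20 CPM or more DESeq2 called 3.81% higher and 0.479% lower, and edgeR with no low-count filter 7.96% and 0.611%. ZNF394 was at 33.1 and 30.2 CPM under DMSO and 17.6 and 17.8 under E6R (-0.84, SE 0.20). ZNF22, at 23.6 and 23.9 CPM under DMSO and 42.4 and 39.5 under E6R, had the largest positive value (0.79, SE 0.22). ZNF830 lay at 21.7 and 24.9 and then 41.3 and 38.7 CPM (0.78, SE 0.22). For ZNF330 the difference was 0.72 (SE 0.23), and for ZNF24, a SCAN protein that takes part in myelination, 0.63 (SE 0.22), from 42.1 and 43.03 CPM to 71.8 and 60.2. Among the 33 members that fell under TSA, E6R values against DMSO ran from -0.70 to 0.53 (median 0.04), and among the 15 that rose, from -0.84 to 0.72 (median 0.08).

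Set against TSA directly, E6R left 39 members higher and 13 lower. Of all genes tested 18.7% were higher and 19.5% lower, and of those at 20 CPM or more 26.8% were higher and 19.7% lower. Among the members the shares were 35.8% and 11.9%, and the median log2 fold change was 0.35 against 0.11. This comparison uses the same TSA libraries as the one against DMSO, and a gene low under TSA could enter through the other groups. These counts thus describe the members only. Among the 57 members at 20 CPM or more in each group, 17.5% were higher and 12.3% lower (median 0.05). Of the 6013 genes held to that limit 20.6% were higher and 19.4% lower (median 0.01). That limit takes out genes low under TSA by its own construction. Among all 109 members the 6 largest differences upward were ZNF462 (3.30, SE 0.23, adjusted p = 0.000232), ZNF532 (2.95), ZNF804A (2.90), ZNF428 (2.71), ZNF827 (2.55) and ZNF32 (2.52). The 6 largest downward were ZNF778 (-2.23, SE 0.29, adjusted p = 0.00132), ZNF394 (-1.92), ZNF687 (-1.81), ZNF217 (-1.42), ZNF598 (-1.35) and ZNF557 (-1.17). Of these 12, ZNF598 lost its call without TSA replicate 2 (adjusted p = 0.0641) and the other 11 passed in all 20 alternatives. ZNF106, the most abundant member, was also lower under E6R than under TSA (-0.78, SE 0.19, adjusted p = 0.0147), a call lost in 5 of 20 alternatives (adjusted p at most 0.158), among them the fits without TSA replicate 1, TSA replicate 2 or E6R replicate 1. Without TSA replicate 2 the median of the members was 0.36, beside 0.07 over the genes at 20 CPM or more. Without TSA replicate 1 these medians were 0.29 and 0.15. Fewer members, and fewer of all genes at that level, were called in both fits.

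**Figure D4:**
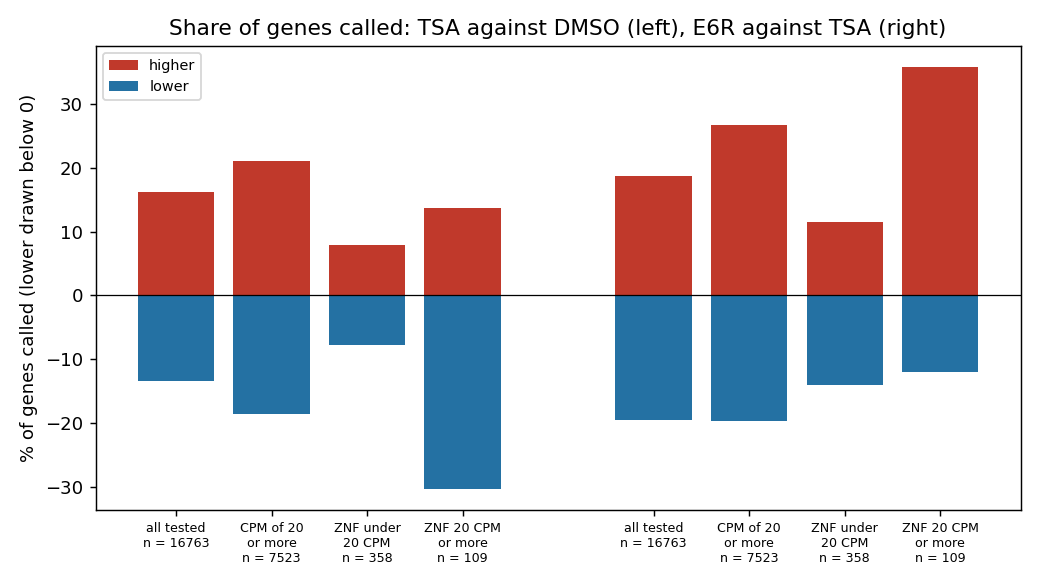
Share of genes called higher (red, above 0) and lower (blue, drawn below 0) at an adjusted p under 0.05, in percent, for TSA against DMSO (left) and E6R against TSA (right) in 4 gene sets, with the number of genes below each bar. Expressed ZNF genes have 13.8% higher and 30.3% lower under TSA, beside 21.1% and 18.6% of all genes at 20 CPM or more.

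Summed over the 109 members, the libraries held 5621 and 4926 CPM (before TMM scaling) under DMSO, 3763 and 3769 under TSA, and 4980.4 and 4948 under E6R. The TSA libraries were the lowest and the E6R libraries lay between the DMSO replicates and level with the lower of them. The log2 ratio of the group means was -0.49 for TSA over DMSO, where the pooled SD of replicates was 0.078, and -0.09 for E6R over DMSO. TMM scaling, which assumes that most genes do not change, gave -0.17 and 0.04, so the size of the first and the sign of the second depend on the scaling. KRAB members alone summed to 2232 and 1848 CPM under DMSO, 1343 and 1389 under TSA, and 1655 and 1727 under E6R. A sum over cells cannot tell fewer expressing cells from fewer transcripts per cell.

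**Figure D5:**
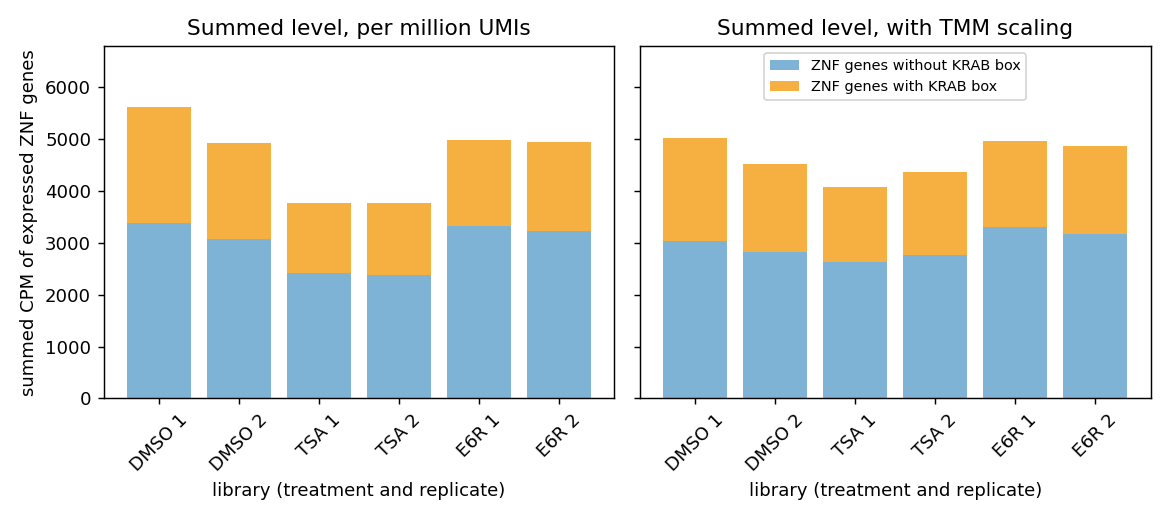
Summed level of the 109 ZNF genes in each library (x axis) in CPM, without (left) and with (right) TMM scaling, split into genes with (orange) and without (blue) a KRAB box. Without scaling the sums are 5621 and 4926 CPM under DMSO, 3763 and 3769 under TSA, and 4980.4 and 4948 under E6R.

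Promoter windows from RefSeq (GRCh38.p14, 250 bases before to 50 after the annotated start) were matched for 96 of the 109 members, among them 14 of the 15 that rose and 27 of the 33 that fell under TSA. The median window held 25 CpG dinucleotides (CG read on the plus strand of the gene), against 14 over all 27305 windows and 27 over the genes at 20 CPM or more. Members that rose had a median of 25 and members that fell 24. The stretches below let the CpG of single rises and falls be seen, and 4 chosen windows show nothing of the members as a whole. They are the 250 bases before the start of the 2 largest rises and 2 largest falls whose window touches no exon of GENCODE 29, from 5′ to 3′ on the strand of the gene, with CpG in capitals. ZNF217 (chr20:53593840-53594089, minus strand, 25 CpG) and ZNF687 (chr1:151281272-151281521, plus strand, 14 CpG) rose, and ZNF32 (chr10:43648882-43649131, minus strand, 27 CpG) and ZNF562 (chr19:9675101-9675350, minus strand, 15 CpG) fell.
ZNF217: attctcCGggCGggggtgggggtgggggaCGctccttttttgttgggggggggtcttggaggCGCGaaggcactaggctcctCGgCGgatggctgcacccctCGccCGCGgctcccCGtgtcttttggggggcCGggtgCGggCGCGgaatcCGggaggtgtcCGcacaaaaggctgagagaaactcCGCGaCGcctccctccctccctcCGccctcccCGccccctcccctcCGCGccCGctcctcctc
ZNF687: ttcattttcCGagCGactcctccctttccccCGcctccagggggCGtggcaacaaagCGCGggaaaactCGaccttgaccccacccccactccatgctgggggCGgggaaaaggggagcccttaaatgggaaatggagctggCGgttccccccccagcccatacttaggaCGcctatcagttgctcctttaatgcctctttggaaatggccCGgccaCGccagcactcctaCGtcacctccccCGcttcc
ZNF32: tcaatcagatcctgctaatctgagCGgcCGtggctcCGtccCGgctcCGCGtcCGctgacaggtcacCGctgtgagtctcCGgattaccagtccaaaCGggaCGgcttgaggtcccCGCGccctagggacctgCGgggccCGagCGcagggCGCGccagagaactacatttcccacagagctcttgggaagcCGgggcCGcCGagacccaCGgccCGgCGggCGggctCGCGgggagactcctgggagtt
ZNF562: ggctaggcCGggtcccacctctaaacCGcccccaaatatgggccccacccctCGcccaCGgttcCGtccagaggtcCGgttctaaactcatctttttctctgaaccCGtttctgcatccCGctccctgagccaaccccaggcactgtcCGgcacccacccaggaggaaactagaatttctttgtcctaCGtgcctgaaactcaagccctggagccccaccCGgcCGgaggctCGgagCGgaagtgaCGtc
ZNF562, a KRAB gene of chromosome 19, was at 97.9 and 76.1 CPM under DMSO, 31.6 and 31.7 under TSA and 82.9 and 86.2 under E6R (-1.46, SE 0.20, adjusted p = 0.00254).

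Because ZNF143 is itself a member that rose, the core of the site it shares with THAP11, TTCTGGGAA, was searched on both strands of the 300-base windows. It was present in 4 of 96 members (4.17%), 33 of the 430 matched ZNF windows (7.67%) and 1.09% of all 27305. Over the 6143 windows of genes at 20 CPM or more the share was 1.01%. The ETS core CCGGAAGT was in 14.6% of members, 10.8% of the windows of genes at 20 CPM or more and 4.44% of all windows, and the E-box CACGTG in 8.33%, 11.2% and 7.43%. The 4 windows are shown over 29 bases with the site in capitals, from 5′ to 3′ on the strand of the gene. They are those of ZNF302 (chr19:34677631-34677659, plus strand), ZNF24 (chr18:35344427-35344455, minus strand), ZNF286A (chr17:15699646-15699674, plus strand) and ZNF197 (chr3:44624930-44624958, plus strand).
ZNF302: agggggaggaTTCTGGGAAatgtggttcg
ZNF24: cgccgggggcTTCTGGGAAaaggcttgtg
ZNF286A: gccaaggcgcTTCTGGGAAttgtagttcc
ZNF197: tcttccccagTTCTGGGAAaagaaacgaa
None of these 4 genes passed under TSA. Their levels under DMSO and TSA were 131 and 189 and 112 and 220.5 CPM for ZNF302. ZNF24 had 42.1 and 43.03 CPM under DMSO and 39.9 and 30.5 under TSA. ZNF286A had 45.7 and 45.1 and 34.9 and 31.3 CPM, and ZNF197, a KRAB and SCAN gene, 22.7 and 26.2 and 19.4 and 21.6 CPM. A match describes these letters in this window and is not evidence of binding.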

How the data were processed

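Single-cell RNA was measured with Seq-Well S3, per the labels' protocols. The submitters' processing notes name STARsolo 2.7.9a and GRCh38, and the sources used here do not give the annotation, the rule for choosing barcodes or the strand setting. The deposited matrices hold whole-number UMI counts per gene and barcode, not normalized by the authors. Counts were summed over barcodes with 500 or more genes and at most 20% mitochondrial UMIs, with no doublet caller run. The 6 sums (4206366 to 26180262 UMIs) were tested with edgeR 4.0.16 (R 4.3.3): TMM scaling, the filterByExpr filter, a quasi-likelihood fit with treatment as the only term over all 6 libraries, and Benjamini-Hochberg adjustment at 0.05 over 16763 genes. Standard errors come from the F statistic. Every adjusted p in the text is from this test unless DESeq2 (version 1.42.0) or an alternative fit, such as a library left out, is named. The common biological coefficient of variation was 0.288. Replicates differed by more than counting noise, with a chi-square per degree of freedom of 17.1 (DMSO), 36.6 (TSA) and 70.02 (E6R). The labels do not say that replicates were separate cultures, so p-values measure the spread between these libraries, which may be technical.

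Positions come from GENCODE 29. KRAB and SCAN boxes were found with pyhmmer 0.12.3 profiles (E-value 0.001) built from 241 KRAB and 14 SCAN windows in the translated longest reading frames. Fingers were counted by a sequence pattern. Promoters come from RefSeq. Members and lists were chosen with earlier results of these data known. Genes were named by rule: the 10 highest levels, the 12 largest called rises and falls under TSA, 6 and 6 for E6R against TSA, the 6 smallest p for E6R against DMSO, 3 genes on each side of the level limit, and members of the role lists. ZNF562, ZNF655, ZNF43 and ZNF430 were added for their position after their values were seen, and ZNF496 because it completes a count. The test script was tested on simulated counts.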

Additional observations from a re-analysis of the deposited data

How the results depend on the processing

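No called member changed sign under any alternative, and counts moved with the libraries left out, the scaling and the settings named here. Counts over all genes at 20 CPM or more moved with the libraries and the scaling too. Beyond fewer samples or genes tested, the cause was not tested. For TSA against DMSO (15 rises and 33 falls), library totals alone gave 9 and 50, testing for a change above 1.5-fold gave 9 rises, and leaving out 1 library (a lone library is then assumed to vary like the other groups) gave 2 to 15 rises and 14 to 35 falls. For E6R against TSA (39 higher and 13 lower), leaving out 1 library gave 22 to 43 higher and 6 to 12 lower, no low-count filter 7 lower, and the 1.5-fold test 6 lower. For E6R against DMSO, 1 member was lower with no low-count filter and 1 with DESeq2, the same gene, ZNF791, and none was higher, beside 7.96% higher and 0.611% lower (no filter) and 3.81% and 0.479% (DESeq2) of the genes at 20 CPM or more. A limit of 10 CPM gave 217 members with 26 rises and 50 falls under TSA and 62 higher and 29 lower in E6R against TSA. A limit of 50 CPM gave 27 members (5, 6, 8 and 5), and 20 CPM under DMSO alone 127 (12, 40, 47 and 12). The shares of all genes called at these limits were not computed, so the counts describe these members only. Asking for 20 CPM in each group gave 57 members (8, 7, 10 and 7). Under TSA 14.0% of these members rose and 12.3% fell, beside 21.3% and 12.7% of the 6013 genes held to that limit. The limit takes out genes that fell under TSA by its own construction, as it does over all genes, where 12.7% fell in place of 18.6%. TMM scaling of the summed level gave log2 ratios of -0.17 (TSA over DMSO), 0.045 (E6R over DMSO, reversed) and 0.22 (E6R over TSA).

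Uncalled genes near 0 changed sign. With library totals ZNF106 was at -0.017, ZNF302 at -0.27, ZNF207 at -0.26, ZNF664 at -0.11, TRIM28 at -0.29 and SETDB1 at -0.11. With upper-quartile scaling ZNF302 was at -0.027, ZNF207 at -0.052 and TRIM28 at -0.060. The same genes were at -0.038, -0.039 and -0.058 with no low-count filter, and at -0.034, -0.041 and -0.057 without mitochondrial and ribosomal protein genes. Thinned sums gave -0.041 for ZNF207 and -0.038 for TRIM28, the fit of the compared groups alone -0.0016 and -0.014, and DESeq2 size factors -0.013 for TRIM28. Without the 5% of cells with most UMIs ZNF302 was at -0.013. Leaving out 1 library gave -0.48 to 0.49 for ZNF302, -0.12 to 0.25 for ZNF207, -0.13 to 0.15 for TRIM28 and -0.20 to 0.69 for SETDB1.

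The labels number replicates alike in each group but do not say that a number marks a shared culture or day. Deviations of same-numbered libraries correlated at 0.24 (DMSO and TSA), 0.56 (DMSO and E6R) and 0.17 (TSA and E6R) over 7523 genes. A replicate block gave 15 rises and 34 falls for TSA against DMSO, 0 and 0 for E6R against DMSO, and 42 higher and 17 lower for E6R against TSA. At this depth a member with 43 UMIs in a library limits what small changes can be seen.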
